A study of Mus musculus with 2 samples.

Results

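The normal duodenum library held 122 cell barcodes whose RNA was dominated by transcripts of pancreatic digestive enzymes. They were taken by their content: a barcode needed at least 2000 unique molecular identifiers (UMIs, each standing for 1 captured mRNA molecule), at least 250 genes, at most 25% mitochondrial UMIs, and at least 10% of its UMIs from 10 acinar genes (Prss2, Try4, Try5, Ctrb1, Cpa1, Cpb1, Cela2a, Cela3b, Pnlip and Clps). These barcodes, called acinar barcodes here, were 122 of the 1752 normal duodenum barcodes within the UMI, gene and mitochondrial limits and 122 of the 24277 barcodes deposited in all. The same rule took 5 of the 4615 polyp barcodes within the limits.

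The study profiled single cells by droplet RNA sequencing of 3′ transcript ends in the intestine of mice that model Peutz-Jeghers polyposis. The group WT was normal duodenum from 3 Lkb1+/+;Myh11-Cre/ERT2 mice, and the group Lkb1_Het was polyp tissue from 3 Lkb1flox/+;Myh11-Cre/ERT2 mice. Both groups carried the same inducible Cre transgene, driven by the promoter of smooth muscle myosin Myh11. The controls were thus Cre carriers with intact Lkb1, and the polyp mice were heterozygous for a floxed allele. The labels used here gave no age and no induction schedule, and the source label of both groups read duodenum. Each group was 1 library that pooled its mice, and the cells of single mice could not be separated, so no test across animals was possible. Every comparison below is a description of these libraries, and every interval is a 95% interval for counting error only.

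Acinar cells form the exocrine tissue of the pancreas, which lies against the duodenum and empties into it. They make digestive enzymes as inactive precursors on the rough endoplasmic reticulum (ER), pack them into zymogen granules, and release them when hormones such as cholecystokinin or nerves raise cytosolic calcium. Their enzyme genes are switched on by the PTF1 complex, in which Ptf1a pairs with an E protein on an E box and Rbpjl, in place of the more widely expressed Rbpj, contacts a nearby TTTCCC box.

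The promoters of the enzyme genes were read for those sequences. RefSeq promoters (build GRCm38.p6, 250 bases before the annotated start) were found for 21 of the 26 cargo genes, here including Zg16, with at least 1000 UMIs in acinar barcodes. The E box CACCTG, searched on both strands, lay in 12 of these 21 promoters (57.1%) and in 17.2% of the 32851 promoters of all genes. TTTCCC lay in 7 of 21 (33.3%) and in 21.9% of all promoters, and both motifs lay within 30 bases of each other in Cel and Cela1, which was 9.52% of the 21 against 0.861% of all. The motifs can overlap at their ends, but in these 21 promoters no match overlapped another. The 5 promoters below show the range, each 5′ to 3′ on the strand of its gene with the motifs in capitals. They are Cela1 (chr15:100687921-100688170, minus strand), Cel (chr2:28563404-28563653, minus strand), Ctrl (chr8:105933863-105934112, minus strand), Cpb1 (chr3:20275734-20275983, minus strand) and Rnase1 (chr14:51146768-51147017, minus strand), the last with neither motif.
Cela1: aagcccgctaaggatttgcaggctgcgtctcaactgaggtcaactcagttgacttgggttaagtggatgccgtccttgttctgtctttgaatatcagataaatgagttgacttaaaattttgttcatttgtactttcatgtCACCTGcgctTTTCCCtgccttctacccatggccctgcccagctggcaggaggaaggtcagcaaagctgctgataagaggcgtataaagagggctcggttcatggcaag
Cel: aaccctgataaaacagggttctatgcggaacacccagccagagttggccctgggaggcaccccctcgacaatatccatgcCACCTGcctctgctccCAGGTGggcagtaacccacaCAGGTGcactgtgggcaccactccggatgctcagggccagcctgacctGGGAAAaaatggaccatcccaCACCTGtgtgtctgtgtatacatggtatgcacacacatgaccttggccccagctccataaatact
Ctrl: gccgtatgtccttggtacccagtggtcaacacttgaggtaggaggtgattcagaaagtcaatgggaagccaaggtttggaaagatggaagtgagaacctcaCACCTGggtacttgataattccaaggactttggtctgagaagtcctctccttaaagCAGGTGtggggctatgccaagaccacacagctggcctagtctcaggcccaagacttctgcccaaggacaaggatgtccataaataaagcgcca
Cpb1: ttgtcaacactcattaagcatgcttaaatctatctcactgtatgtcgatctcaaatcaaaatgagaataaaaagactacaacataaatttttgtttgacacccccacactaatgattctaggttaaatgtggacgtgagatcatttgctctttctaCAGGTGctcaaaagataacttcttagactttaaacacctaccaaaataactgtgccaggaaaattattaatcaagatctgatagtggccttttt
Rnase1: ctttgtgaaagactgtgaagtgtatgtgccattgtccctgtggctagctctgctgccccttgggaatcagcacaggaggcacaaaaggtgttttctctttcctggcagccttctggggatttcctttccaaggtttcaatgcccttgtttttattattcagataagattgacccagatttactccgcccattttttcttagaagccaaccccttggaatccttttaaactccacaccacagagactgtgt
The E box began 109 bases before the start in Cela1, with TTTCCC at 99 bases. It began 94 bases before the start in Cpb1 and at 149 and 93 bases in Ctrl. Cel held 4 E boxes, at 170, 154, 134 and 65 bases, and 1 TTTCCC at 86 bases. Over all 12 promoters with an E box the sites ran from 46 bases (Cela3b) to 228 bases (Pnliprp2). A match is a description of the letters and does not show that a factor binds there.

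The 10 gate genes, which chose the barcodes, took between 11.03% and 63.6% of the UMIs of an acinar barcode, with a median of 54.5%, and 111 of the 122 stood at 40% or more. The lowest 3 stood at 11.03%, 13.4% and 14.4%, and the highest 3 WT barcodes left out stood at 5.46%, 4.74% and 4.36%. The 5 marker genes named for the cell type, Prss2, Ctrb1, Sycn, Cpb1 and Pnliprp1, each had UMIs in all 122 barcodes. Of these, Sycn and Pnliprp1 were not in the gate, and thinned to 2000 UMIs they were found in all 122, against 63.9% and 31.8% of T cell barcodes (defined below).

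Acinar barcodes had more UMIs and fewer genes at the median than the other WT barcodes within the limits. They held 2013 to 74604 UMIs (median 9014.5) from 256 to 5007 genes (median 673), whereas the other 1630 WT barcodes within the limits had medians of 4572.5 UMIs and 1431.5 genes. Their median mitochondrial share was 0.983% against 4.05%. The upper quartile of UMIs was 15001 in acinar and 20877 in the other barcodes. Plasma and enterocyte barcodes (defined below) were deeper at the median, at 19222 and 25025 UMIs, and T barcodes shallower, at 3205. The WT library held 39222238 UMIs and the Lkb1_Het library 63566462. The libraries shared 44 barcode sequences, none of them an acinar barcode of WT.

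**Figure D1:**
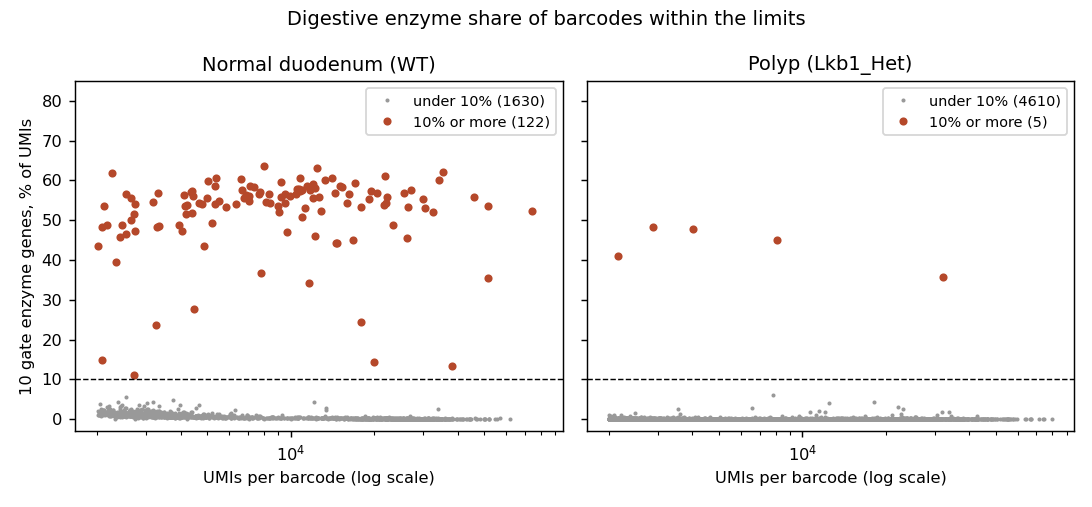
Share of UMIs from the 10 gate genes (percent, vertical axis) against UMIs per barcode (log scale) for every WT and Lkb1_Het barcode within the limits, with the 10% cut dashed. The WT acinar barcodes span 11.03% to 63.6%, above a gap that starts at 5.46%, and Lkb1_Het has 5 barcodes above the cut.

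In the polyp library the same gate found 5 barcodes of 4615 (0.108%, exact binomial interval 0.0352% to 0.253%), against 6.96% (5.82% to 8.26%) in normal duodenum. Only 3 of the 5 carried the acinar mix. These 3 held 2881, 2151 and 4042 UMIs, and in that order 265, 145 and 266 UMIs of Prss2 and 242, 167 and 428 of Ctrb1. Their cargo shares were 70.1%, 59.7% and 72.1%, within the range of the WT acinar barcodes. The other two passed on Clps alone, the gene of colipase, the cofactor of pancreatic lipase. They held 11488 and 3641 Clps UMIs, which were 35.8% and 44.9% of their RNA, beside 5250 and 2243 UMIs of Pla2g1b, a secreted phospholipase, and 3416 and 748 of Pgc, which encodes the gastric protease precursor pepsinogen C. Prss2 had 1 and 0 UMIs in them and Ctrb1 had 0 in both. With Clps left out of the gate sum, an alternative added after these values were seen, Lkb1_Het kept 3 barcodes and WT 121. Clps at 1% of UMIs or more was found in 22 Lkb1_Het barcodes within the limits, and in 1 WT barcode that was not acinar. How much pancreas was cut out with each tissue was not recorded in the labels, so a difference in dissection and a difference between the genotypes cannot be told apart.

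Enzyme transcripts made up most of the acinar RNA. Secretory cargo was counted over 42 genes with a single row in the files, of 44 listed, and 41 of them had a UMI in acinar barcodes. Cargo took 1107732 of 1486408 UMIs (74.5%, interval 74.5% to 74.6%), and 15.3% to 88.3% of single barcodes with a median of 79.4%. The 10 gate genes are part of this sum, which therefore describes the rule in part. Serine protease precursors led: chymotrypsinogens and elastases took 30.2% of the cargo and trypsinogens 30.1%. Lipases and their cofactor took 20.3%, carboxypeptidases 6.66%, the granule proteins and trypsin inhibitor (Sycn, Gp2, Spink1 and Cuzd1) 5.65%, Reg lectins 4.32%, and amylase with ribonuclease 2.74%.

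Levels are given as UMIs per 1000000 (CPM) summed over the 122 barcodes. In 3′ counting each molecule is counted once whatever its length, so levels compare molecules between genes. Ctrb1, which encodes chymotrypsinogen B, was the most abundant transcript at 127528 CPM (126954 to 128103) and ranged from 2.98% to 27.8% of a barcode's UMIs. Clps followed at 99036 CPM and Prss2, an anionic trypsinogen, at 79108 CPM. Below them stood the trypsinogens Try4 (55345 CPM), 2210010C04Rik (48411 CPM) and Try5 (40132 CPM) and the elastase gene Cela1 (43763 CPM). Outside the gate, Sycn, which encodes the granule membrane protein syncollin, reached 35469 CPM, and Zg16, which encodes a lectin of the granule matrix and is also made by goblet cells, reached 25722 CPM. Reg1, a C-type lectin of the regenerating family, stood at 25631 CPM and Rnase1, pancreatic ribonuclease, at 19968 CPM.

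Within each family a few genes carried the total. Among lipases Clps far exceeded Pnlip, the main triglyceride lipase (30253 CPM), the related Pnliprp1 (10757 CPM) and Pnliprp2 (1851 CPM), Pla2g1b (5506 CPM) and Cel, the bile salt-activated lipase (4057 CPM). The carboxypeptidase genes Cpb1 (23027 CPM) and Cpa1 (22153 CPM) stood close to each other. The elastases Cela3b (21298 CPM) and Cela2a (19543 CPM) exceeded the chymotrypsin-like Ctrl (10043 CPM), the kallikrein Klk1 (2898 CPM) and Ctrc (207 CPM). Spink1, the trypsin inhibitor that guards against early activation, stood at 4959 CPM, and the granule membrane proteins Gp2 and Cuzd1 at 1282 and 416 CPM. The trypsinogens Prss3 (620 CPM) and Try10 (477 CPM) were minor. Prss1, Gm5771 and Cela3a had 3, 44 and 6 UMIs. Among Reg genes Reg2 stood at 5470 CPM and Reg3b at 671 CPM, and Reg3d, Reg3a and Reg3g at 199.8, 134 and 80.7 CPM. Reg1 was also high elsewhere, at 8670 CPM in enterocyte barcodes (defined below).

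Amylase was counted at low levels. Amy2b, a further amylase gene on the list, was not among the genes with a single row and was left out of the count. The 5 Amy2a genes summed to 465 UMIs, of which Amy2a5 held 312, Amy2a3 57, Amy2a2 50, Amy2a4 46 and Amy2a1 0, and the salivary-type gene Amy1 held 198. These genes lie together on chromosome 3 (GRCm38, 113247178 to 113258837 for Amy2a5). In the GENCODE vM21 transcripts, every window of 91 bases in the last 500 bases of Amy2a1, Amy2a2, Amy2a3 and Amy2a4 also occurred in another gene, so their counts are uncertain, and how reads shared between genes were counted is not given in the sources used here. The same holds in part for Cela2a, with 53.7% of windows shared with Ctrc, and for Try4 and Try5, which shared 27.3% and 35.9% of windows with each other. Prss3 (54.6%), Gm5771 (40.5%), Prss1 (34.6%) and Try10 (13.9%) also shared windows with other genes. Amy2a5 and Amy1 shared none. Prss2, Ctrb1, Cpa1, Clps and Rnase1 shared none.

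**Figure D2:**
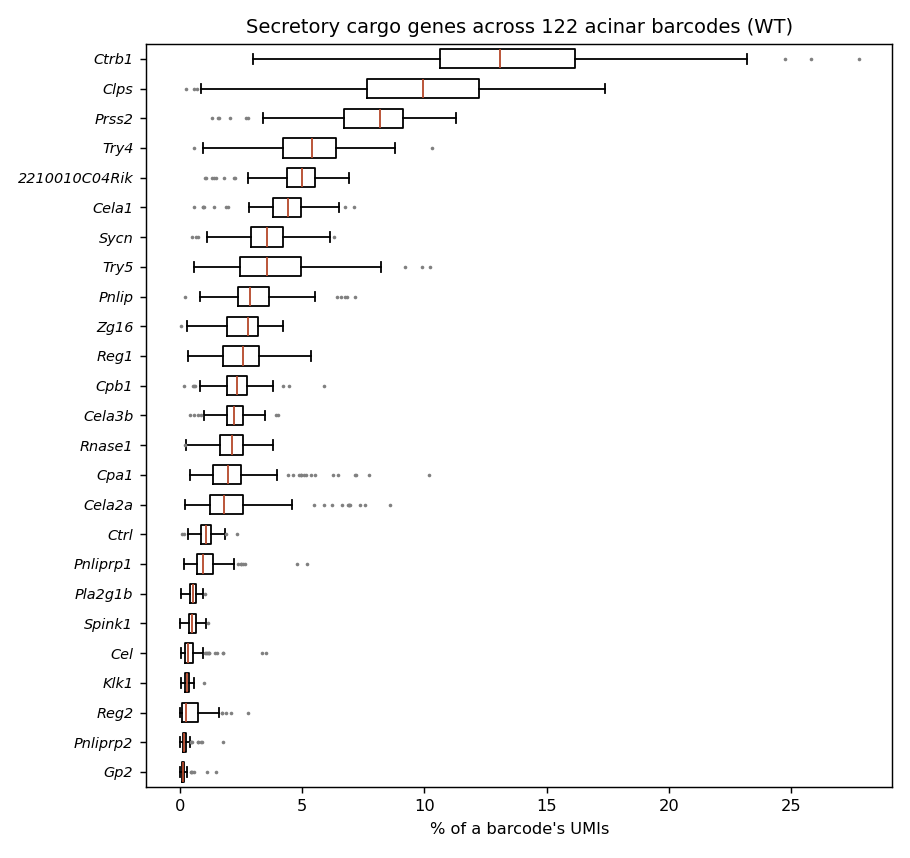
Share of each barcode's UMIs (percent) taken by the cargo genes with at least 1000 UMIs, and Zg16, across the 122 acinar barcodes; boxes show quartiles with the median, and points lie beyond the whiskers. Ctrb1 and Clps lead with medians of 13.1% and 9.94%, and Gp2 is lowest at 0.115%.

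Enzyme transcripts were also counted, at low levels, in barcodes of other cell types of the WT library. Barcodes of T cells (606 with at least 2 UMIs of Cd3d, Cd3e and Cd3g and none of the epithelial gene Epcam) served as cells that should lack pancreatic genes. Cargo took 1.37% of their UMIs. It took 0.286% in 143 plasma barcodes (at least 10% of UMIs from Igha, Igkc and Jchain) and 1.31% in 210 enterocyte barcodes (at least 2% from Fabp1, Fabp2, Apoa1, Apoa4 and Rbp2), where Reg1 alone was 66.0% of the cargo. Leaving out the Reg genes and Spink1, which gut epithelium also makes, a barcode held on average 46.8 cargo UMIs among T, 50.7 among plasma and 48.1 among enterocyte barcodes, although their median depths were 3205, 19222 and 25025 UMIs. With every barcode thinned to 2000 UMIs, Ctrb1 was found in 97.2% and Prss2 in 91.6% of T barcodes, and in all acinar barcodes. Acinar barcodes had a median depth of 9014.5 UMIs. Shares of cells with a UMI of these genes therefore do not mark acinar cells in this library. Less abundant cargo separated the types better: Gp2 was found in 84.4% of acinar and 5.45% of T barcodes, and Klk1 in 98.4% and 7.43%.

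The cargo mix of these other barcodes was not that of the acinar barcodes. Cela2a was 5.66% of the cargo UMIs in T barcodes and 2.62% in acinar barcodes, and Try4 was 10.5% against 7.43%. Clps went the other way, with 6.66% in T barcodes against 13.3%, and Prss2 was 10.5% and 10.6%. The 6453 WT barcodes over the mitochondrial limit, in which cargo was 1.80% of UMIs, stood with the T barcodes, at 5.12% for Cela2a, 10.2% for Try4 and 6.59% for Clps. Plasma barcodes gave 5.21%, 10.99% and 6.45%. The low cargo counts of T, plasma and high-mitochondrial barcodes thus had nearly 1 mix, which differed from the acinar mix. The reason was not tested.

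**Figure D3:**
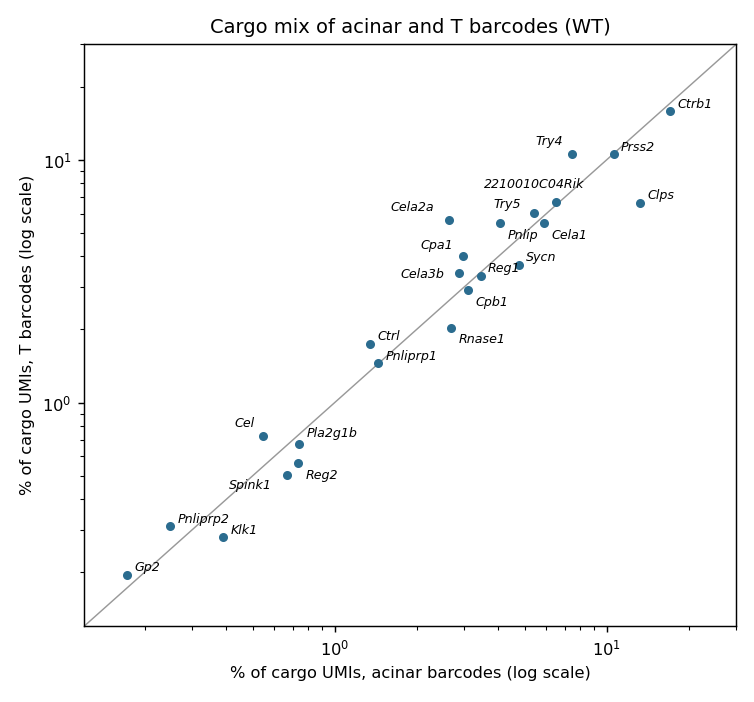
Share of cargo UMIs (percent, both axes on log scales) of each cargo gene with at least 1000 UMIs in acinar barcodes, in the 122 acinar barcodes against the 606 T barcodes of WT; the line marks equal shares. Cela2a (5.66% in T against 2.62%) and Try4 lie above the line and Clps (6.66% against 13.3%) and Rnase1 below it.

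Acinar barcodes did not share 1 fixed enzyme mix. For each gene the spread of its share of cargo over barcodes was set against the spread that counting alone gives. The standard deviation was 9.65 times the binomial value for Clps, 9.39 times for Try5, 9.08 times for Cela2a, 8.48 times for Ctrb1, 8.29 times for Cpa1 and 6.37 times for Cel. It was 2.68 times for 2210010C04Rik and 1.66 times for Klk1. This multiple grows with a gene's abundance: as a coefficient of variation beyond counting, the spread was 1.14 for Cel, 0.75 for Cela2a, 0.41 for Clps, 0.33 for Klk1, 0.28 for Ctrb1 and 0.15 for 2210010C04Rik. From the 10th to the 90th percentile of barcodes, Cela2a ran from 1.26% to 7.31% of cargo, Clps from 4.61% to 19.2% and Cpa1 from 1.56% to 6.16%. Prss2 ran from 7.74% to 12.4%. Reg2 ran furthest of the 11 genes so compared, from 0.0343% to 1.63%, with 30 barcodes above 3 times its median.

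The shares varied in groups. The Cpa1 share went with that of Cel (Spearman rho 0.82 over the 122 barcodes), with Pnliprp1 (0.71) and with Cela2a (0.63), and Pnlip with Pnliprp2 (0.69). At the other end Clps went with Rnase1 (0.69). Rnase1 ran against Cpa1 (-0.67) and Cela2a (-0.60), and Clps against Cela2a (-0.58). Shares of 1 total are not independent, and the barcodes share 1 library, so these values are descriptions. They had the same sign, at 0.77 for Cpa1 with Cel and -0.63 for Rnase1 with Cpa1, over the 85 barcodes with at least 5000 UMIs. Over the 116 barcodes without another cell type's markers they were 0.82 and -0.67.

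Cpa1 had more UMIs than Rnase1 in 51 barcodes, fewer in 70 and as many in 1, and the log2 ratio of Cpa1 to Rnase1 ran from -2.21 to 5.48 with a median of -0.16. The ratio had a rho of -0.07 with UMIs and -0.11 with mitochondrial share. Genes outside the cargo went with it too. As shares of the remaining UMIs, Pdia2, which encodes a pancreatic disulfide isomerase, had a rho of 0.50 with the ratio, Rpl13, a ribosomal protein gene, 0.44, and Dmbt1, a secreted scavenger receptor, 0.43. Zg16 had -0.55 and Tff2, a secreted trefoil peptide, -0.53.

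**Figure D4:**
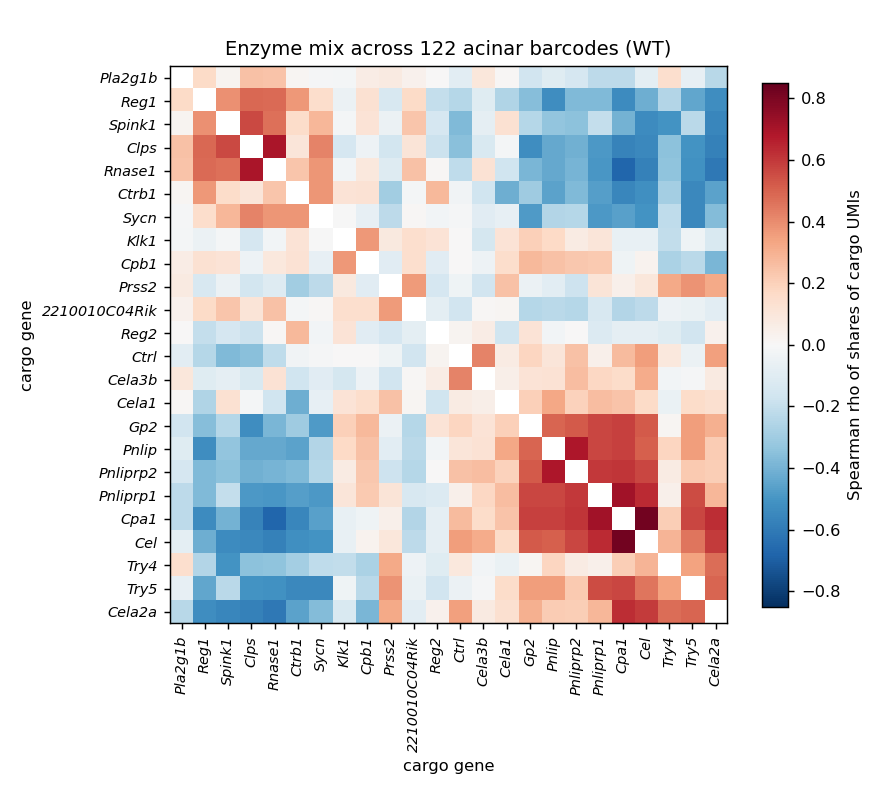
Spearman correlation (colour, red positive and blue negative) between the shares of cargo UMIs of cargo genes with at least 1000 UMIs over the 122 acinar barcodes, in clustered order, with the diagonal left blank. The block of Cpa1, Cel, Pnliprp1, Pnlip and Cela2a is red (Cpa1 with Cel 0.82) and runs against Clps, Rnase1 and Reg1 (Rnase1 with Cpa1 -0.67).

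The machinery of secretion was compared between acinar barcodes and the other 1630 WT barcodes within the limits. Because cargo fills most of the acinar RNA, the median gene had a log2 ratio of -2.32, and ratios below are given relative to it. A gene was called higher or lower past 2-fold with at least 20 UMIs over both groups, which took 17.2% and 19.9% of the 12732 genes tested, many of them with few UMIs. Of the 12719 genes with a symbol of their own, 3.53% had a whole counting interval past 2-fold on the higher side and 2.08% on the lower side. The comparison barcodes are a mixture of other cell types, and the groups were chosen by RNA content, so these counts are descriptions, and the lists were chosen with earlier results of these data known. The counts depend on the scale: without the median gene as reference, 21 entries of the 13 lists were higher and 132 lower, against 73 and 21. A gene on several lists, such as Xbp1 or Chac1, was counted for each. Genes past 2-fold are written as higher or lower below in that relative sense.

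Transcription factors of the acinar programme had few UMIs in these barcodes. Of 11 tested, 7 were higher and 1 lower, and 5 had the whole interval past 2-fold. Ptf1a had 33 UMIs in 20 acinar barcodes and 5 UMIs in all others, a ratio of 425 (165 to 1396). Its partner Rbpjl had 29 and 15 UMIs, a ratio of 125. Bhlha15, or Mist1, which builds the secretory apparatus, had 18 and 56 (20.7), and Nr5a2, which maintains acinar identity, 15 and 189 (5.11). Xbp1, a regulator of ER capacity, was the most abundant at 103 CPM with a ratio of 3.19, and Creb3l1 had 2.42. Gata4 had 4 UMIs against 759, a ratio of 0.340, and its interval was not wholly past 2-fold.

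Of 12 genes for receptors and signalling tested, 6 were higher and 1 lower. Cckar, the cholecystokinin receptor, had 127 UMIs against 11 (85.4 CPM, ratio 744), and Aqp12, an intracellular aquaporin of acinar cells, had 231 against 12 (155 CPM, ratio 1241). Thinned, Aqp12 was found in 30.3% of acinar and 0.495% of T barcodes, and Cckar in 13.9% and 0.165%. Atp2c2, a secretory pathway calcium pump, had a ratio of 24.0. Chrm3, Aqp8 and Itpr2 had 2, 2 and 5 acinar UMIs, with intervals reaching below 2-fold, and Itpr1, the 1 called lower, had 0 with an interval reaching 1.26. Of 12 exocytosis genes 4 were higher and 2 lower. They were Copz2, a coat protein subunit (ratio 71.7), the granule GTPase Rab3d (7.60), Sytl1 (5.86) and Rab27b (2.70), against Vamp2 (0.244) and Stx3, with 0 UMIs against 27.1 CPM. Of these, 3 of the higher and 1 of the lower genes had the whole interval past 2-fold. Vamp8, the granule SNARE, was the most abundant at 71.3 CPM with a ratio of 1.97.

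Part of the genes for entry into the ER, folding and export was higher relative to the median gene, and none was lower. Of 25 translocation genes 11 were higher, 9 with the whole interval, and 14 within 2-fold, with a list median of 0.91 on the log2 scale against 0 for all genes. Tram1, a translocon component, had a ratio of 7.51, Spcs3, a signal peptidase subunit, 4.27, Srpr, the signal recognition particle receptor, 4.24, Srp54a 4.05, Srp9 3.51 and Sec62 3.18, and Ssr4 was the most abundant at 404 CPM. Of 21 folding genes 11 were higher, 5 with the whole interval, and 10 within 2-fold (median 1.03). Pdia2 led with 698 UMIs against 98 (470 CPM, ratio 459) and was found in 58.2% of acinar and 2.81% of T barcodes after thinning. Fkbp11 (14.9), the cochaperone Dnajc3 (4.51), the prolyl isomerase Ppib (4.26), Hyou1 (2.92) and Sil1 (2.56) followed. Hspa5, which encodes the main ER chaperone BiP, had a ratio of 1.40 and was not past 2-fold. Of 18 export genes 8 were higher, 7 with the whole interval, and 10 within 2-fold (median 0.93), led by the cargo receptor subunit Tmed6 (326 CPM, ratio 152), Mcfd2 (7.62), Tmed3 (6.89), Kdelr3 (6.51) and Lman1 (2.88). Without the median-gene reference these lists had 0, 2 and 1 higher and 17, 15 and 11 lower. With the median gene kept but genes admitted from 1 UMI, 6, 4 and 4 were higher, a smaller share of each list than the 31.9% of all genes called higher in that setting.

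Plasma cells, the other professional secretory cells of this tissue, gave a second scale. As summed CPM over the UMIs outside cargo, mitochondrial, ribosomal repeat and immunoglobulin genes, translocation genes reached 11888 in acinar, 26503 in plasma and 4521 in T barcodes. Folding genes reached 12130, 21890 and 2909. Export genes reached 5150, 4272 and 1202. Acinar barcodes thus lay between plasma and T barcodes for translocation and folding and above both for export. The order for export rested on Tmed6, which gave 1588 of the acinar sum, more than the gap to plasma barcodes. Thinned, Tmed6 was found in 52.5% of acinar and 0% of plasma barcodes. Every acinar barcode had UMIs of the translocation and folding lists, with medians of 11085 and 12192 CPM on that scale.

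The list drawn up for amino acid supply, which also holds genes of creatine synthesis, methyl transfer and translation control, had the highest median of the 13. Of 14 tested, 11 were higher and 0 lower, all 11 with the whole interval past 2-fold, and the list median was 3.48 on the log2 scale. The amino acid transporter Slc38a5 had 27 UMIs against 2 (ratio 870, interval 219 to 7550) and Gnmt, glycine N-methyltransferase, 96 against 11 (562). Gatm and Gamt, the enzymes of creatine synthesis, had 338 against 41 (227 CPM, ratio 531) and 188 against 150 (80.8). Chac1 (20.1), Slc7a5 (13.4), asparagine synthetase Asns (12.5) and Eif4ebp1, a repressor of translation (9.88), were also higher. Thinned, Gatm was found in 32.8% of acinar and 0.495% of T barcodes. Without the median-gene reference 7 of the 14 were still higher and 3 were lower.

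**Figure D5:**
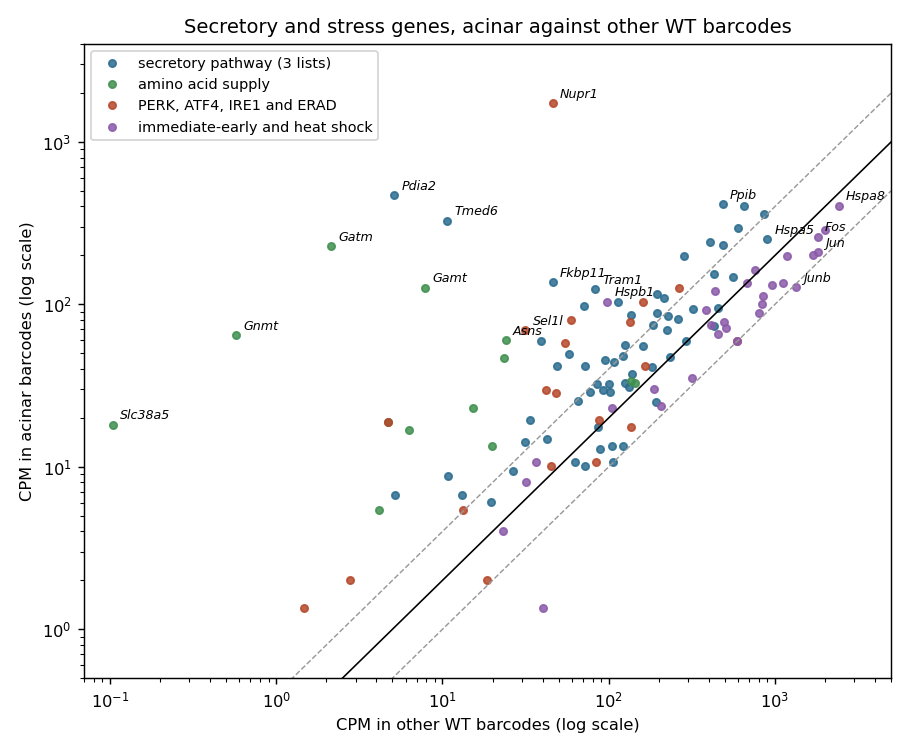
CPM in acinar barcodes against CPM in other WT barcodes (both on log scales) for the genes of 8 lists with at least 20 UMIs over both groups and a UMI in acinar barcodes; the solid line is the median gene and the dashed lines are 2-fold from it. Pdia2, Tmed6, Gatm, Gnmt and Nupr1 lie far above the line (Nupr1 at 1733 against 46.1 CPM), whereas Fos, Jun and Junb lie below it.

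Counts differed between the stress lists. Of 10 genes tested on the arm of the unfolded protein response run by PERK and ATF4, 6 were higher and 0 lower, 3 of them with the whole interval past 2-fold. The shares over all genes were 17.2% higher and 19.9% lower. Without the median-gene reference 2 of the 10 were higher and 6 lower. Over UMIs outside cargo, Nupr1 alone gave 8434 of the list's 9852 CPM. Nupr1, a stress-induced nuclear protein known from acute pancreatitis, had 2576 UMIs against 882 (1733 CPM, ratio 188), and thinned it was found in 65.6% of acinar and 4.95% of T barcodes. It was unevenly spread: 3 barcodes with 492, 367 and 353 UMIs held 47.0% of the total, and without them its level was 979 CPM. The first of these had a mitochondrial share of 12.4%, and the other two 0.902% and 0.740%. Herpud1 had a ratio of 2.38, and Trib3, Sesn2 and Eif2ak3 had 2, 3 and 8 UMIs. Chac1, given above with amino acid supply, was also on this list and among the higher genes. Atf4 (1.26), Ppp1r15a (0.641) and Atf3 (0.501) were not past 2-fold, and Ddit3 was left out of the fold counts because more than 1 row of the files carries its symbol.

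Of 11 genes of the IRE1 branch and of ER-associated degradation, 7 were higher, all with the whole interval past 2-fold, and 1 was lower. Without the median-gene reference 1 was higher and 4 were lower. As CPM over UMIs outside cargo, mitochondrial, ribosomal repeat and immunoglobulin genes, the list summed to 2282 in acinar, 5828 in plasma and 435 in T barcodes. Sel1l, the adaptor of the degradation ligase, had a ratio of 11.01, the lectins Edem1 and Edem2 6.75 and 5.34, Derl3 3.55 and Os9 2.92. Ern1, the gene of IRE1 itself, was the 1 called lower, with 0 UMIs against 4.86 CPM, but its interval relative to the median gene reached 2.61, so no direction can be read.

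Immediate-early genes, which cells switch on within minutes of a stimulus, did not stand apart in summed counts on the median-gene scale. None of 18 was higher and 2 were lower, Junb (ratio 0.480) and Ier3 (0.168), a smaller share than the 19.9% of all genes, and 0 had the whole interval past 2-fold lower. Fos, the most abundant at 260 CPM against 1804, had a ratio of 0.722, within 2-fold, so that most of the gap in CPM was shared with the median gene. As CPM over the same UMIs outside cargo the list summed to 7851 in acinar, 18637 in T and 14524 in all other barcodes, and with immunoglobulins kept in that scale 8 of 18 were lower. The summed counts rested on few barcodes: the 10 with the most UMIs held 79.6% for Fos and 70.5% for Jun. By barcode the list median outside cargo was 2553 CPM in acinar and 15472 in other barcodes. Among acinar barcodes with a gate share of 50% or more, 11 of 18 were lower on the median-gene scale, against 24.2% of all genes. Thinned, Fos was found in 15.6% of acinar and 78.5% of T barcodes, Jun in 17.2% and 83.5%. Thinning does not remove the UMIs that cargo takes. Of 12 heat shock genes 1 was higher, Hspb1 (5.30), and 0 were lower. Hspa8 was the most abundant at 404 CPM (0.834), and Hspa1a was found in 9.02% of acinar and 64.9% of T barcodes. Of its 242 acinar UMIs, 147 lay in barcodes that also held 1% or more of another type's markers.

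Of 12 oxidative stress genes 0 were higher and 5 lower: Prdx1 (0.469), Gpx1 (0.423), Txn1 (0.412), Nqo1 (0.0774) and Hmox1, with 0 UMIs and an interval reaching 1.31. Of these, 2 had the whole interval past 2-fold. Over UMIs outside cargo the list summed to 5202 CPM in acinar, 4735 in plasma, 1527 in T and 8323 in other barcodes. Its median by barcode on that scale was 3759 in acinar and 2548 in other barcodes, the reverse order. With means over barcodes in place of summed counts, 4 oxidative stress genes were higher and 2 lower. The metallothionein Mt1 was the most abundant at 565 CPM (1.57). Of 15 genes of acinar injury and duct-like change, 1 was higher and 9 lower. Clu, the chaperone clusterin and an injury gene of acinar cells, had 448 UMIs against 2343 (301 CPM, ratio 12.3) and was found in 34.4% of acinar and 1.49% of T barcodes. The duct keratin Krt19 (0.300), S100a6 (0.0712), Anxa2 (0.174), Cd44 (0.122) and Spp1 (0.139) were lower. Ccl2 and Cxcl1 had 0 UMIs with intervals reaching 1.73 and 1.35, and 4 of the 9 had the whole interval past 2-fold. Over UMIs outside cargo the injury list summed to 3592 CPM in acinar, 798 in plasma, 1198 in T and 5769 in other barcodes. Its median by barcode was 2743 in acinar and 1779 in other barcodes.

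Barcodes with less cargo carried more mitochondrial, immediate-early and heat shock RNA. Cargo share had a rho of -0.66 with mitochondrial share, -0.32 with the share of ribosomal repeat RNA and 0.27 with UMIs; shares of 1 total are bound to run against each other in part. As shares of UMIs outside cargo, the immediate-early list had a rho of -0.40 with cargo share and 0.42 with mitochondrial share, and the heat shock list -0.44 and 0.31. The oxidative stress list had a rho of -0.35 with cargo share and 0.17 with mitochondrial share, and the injury list -0.29 and 0.27. The lists of PERK and ATF4 (0.038) and of IRE1 and degradation (-0.077) did not go with cargo share. Of 884 genes ranked by rho with cargo share, the highest were Zg16 (0.70), Rpl41 (0.51), Tff2 (0.50), Tmed6 (0.46) and Prdx4 (0.42), an ER peroxidase. The UMIs outside cargo shrink as cargo share rises, so a gene that keeps its share of all UMIs gains a positive rho. Zg16 and Tff2 are themselves secreted products that were not counted as cargo, so their values are in part built in. The lowest were Malat1 (-0.43), a nuclear RNA, Egr1 (-0.41), Junb (-0.39), Btg2 (-0.39) and Actb (-0.38). Of the 122 barcodes 6 held another type's markers at 1% or more, as given next, and their part in these values was not tested.

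Markers of other pancreatic cells were nearly absent. Of 8 islet markers 5 (Ins1, Ins2, Gcg, Ppy and Iapp) had 0 UMIs, which allows up to 2.02 CPM each, and the list summed to 10.1 CPM. All 4 endothelial markers were at 0, 5 of 7 stellate or fibroblast markers were at 0 (Col1a1, Col1a2, Lum, Pdgfra and Pdgfrb), and the 8 duct markers summed to 148 CPM, against 139.6 CPM in T barcodes and 1520 CPM in all other WT barcodes. No acinar barcode held 1% or more of islet, duct, stellate, T or myeloid markers. Of gut cell types, plasma markers passed 1% in 3 acinar barcodes, at 62.6%, 26.3% and 2.35% of their UMIs. These barcodes held 20009, 51553 and 2082 UMIs in that order. For Paneth, enterocyte and goblet markers 1 barcode each passed 1%, the last counted without Zg16. The 3 barcodes with the most Igkc held 20626 of 21598 Igkc UMIs. Without the 6 mixed barcodes Igkc stood at 715 CPM, and the plasma list fell from 18648 to 1150 CPM. The goblet list summed to 26337 CPM, of which Zg16 gave 25722, and the mucous gland list to 4924 CPM, of which Tff2 gave 4865. Tff2 was 828 CPM in T and 8096 CPM in all other WT barcodes, and after thinning it was found in every acinar and 78.5% of T barcodes.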

How the data were processed

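The deposited matrices hold UMI counts per gene and barcode, made by the authors with Cell Ranger 3.0.0 on mm10 per the submitters' processing notes; the matrix header names version 5.0.0, and the annotation release is not given in the sources used here. Per the labels' protocols, tissue was digested with collagenase and strained. Both libraries were analysed, with 39222238 UMIs in WT and 63566462 in Lkb1_Het, and the 3 mice of each were pooled.

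Acinar barcodes were taken by the stated gate with Python 3.11.15, numpy 2.4.6, scipy 1.17.1, pandas 2.3.3 and scanpy 1.11.5, the last for doublet scores. Its automatic threshold marked 0 barcodes and so did not work here; doublets were kept, and an alternative left out the highest scores. Sums carry exact Poisson intervals, shares exact Clopper-Pearson intervals, and a 0 is read as up to 3 counts. Intervals cover counting error only. Ratios compare CPM relative to the median gene. Thinning drew 2000 UMIs per barcode. Scripts were tested on simulated data.

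Members and lists were chosen with earlier results of these data known. Genes named were the gate and marker genes, cargo genes with a UMI, up to 6 per list and direction past 2-fold, each list's most abundant gene, the 10 highest in level and the 10 highest and 10 lowest in ratio outside the lists, and the 5 highest and 5 lowest in correlation with cargo share. Hspa5, Fos, Jun, Hspa1a, Atf4, Ppp1r15a and Atf3, and the genes correlated with the Cpa1 to Rnase1 ratio, were named after their values were seen. A few genes that the rule names are not reported here. Gene positions came from GENCODE vM21 and promoters from RefSeq, build GRCm38.p6.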

Additional observations from a re-analysis of the deposited data

How the results depend on the processing

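No paired analysis was possible because each group was 1 library with no replicate, and for the same reason no replicate could be left out. The WT count of 122 acinar barcodes became 222 with at least 500 UMIs, 145 with 1000 and 85 with 5000, 90 with a gate share of 50% or more and 82 with at least 500 genes; other gates gave 112 to 125. The Lkb1_Het count of 5 became 18 with at least 500 UMIs, 10 with 1000, 2 with 5000, and 0 with a gate share of 50%. The cargo share of 74.5% was 72.4%, 74.1% and 74.9% with at least 500, 1000 and 5000 UMIs, 74.4%, 76.9% and 80.9% with a gate share of 5%, 20% and 50%, 75.9% with mitochondrial UMIs at most 10% and 74.2% with no limit, 74.0% with at least 500 genes, 74.6% with Prss2 or with Clps out of the gate, 77.3% without the highest doublet scores, 78.0% without the 6 mixed barcodes, and 74.6% as a mean over barcodes. The mixed-barcode and Clps settings were chosen after seeing the data.

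Of the entries in the 13 lists from transcription factors to acinar injury, 73 were higher and 21 lower, with a gene on several lists counted for each. Without the median gene as reference 21 were higher and 132 lower. The lower count was 37 as CPM over UMIs outside cargo, 55 with genes from 1 UMI and 43 with a gate share of 50%; the higher count was 52 to 87 under these and the remaining settings. Several lists moved with the setting: over the alternatives translocation genes ran from 0 to 16 higher and 0 to 17 lower, heat shock genes from 0 to 11 lower, and immediate-early genes from 2 to 18 lower with 0 higher in each. Without thinning, the shares of acinar barcodes with a UMI became 90.2% for Nupr1, 92.6% for Pdia2, 82.8% for Tmed6, 52.5% for Cckar, 69.7% for Aqp12, 64.8% for Hspa5, 41.0% for Fos, 25.4% for Hspa1a and 75.4% for Clu. Depth limits genes with few UMIs, such as Ptf1a with 33 and Trib3 and Chrm3 with 2 each.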

Other observations

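Genes outside the lists extended the picture of the acinar barcodes. Of those with the highest ratios to other WT barcodes, ranked by the interval end nearest 1, Cabp2, a calcium-binding protein gene, had 105 UMIs against 3 (ratio relative to the median gene 2256, interval 751 to 11114). Tmed11, a p24 family member like Tmed6, had 128 against 9 (917), and the kallikrein Klk1b5 152 against 12 (816). Klk1 shared 11.3% of its 3′ windows with Klk1b5, so the latter is uncertain. Peptide and hormone genes were among them: Hamp2, a hepcidin gene (134 CPM, ratio 475), Gal, the neuropeptide galanin (118 CPM, 334), Fgf21, a metabolic hormone that the pancreas is known to secrete (30.3 CPM, 264), and Igf1 (39.0 CPM, 83.1). The rest were the ATP-gated channel gene P2rx1 (516), the sulfotransferase gene Chst2 (239) and the tight junction gene Cldn10 (139.6). Without thinning, Gal was found in 51.6% of acinar and 1.90% of other WT barcodes, and Fgf21 in 19.7% and 0.675%.

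The lowest ratios outside the lists belonged to genes of other cells. They were the immune receptor adaptors Fcer1g (0.0213) and Tyrobp (0.0341), the gastrokines Gkn3 (0.0989) and Gkn2 (0.105), and the enterocyte-rich genes S100g (0.0949), Prap1 (0.128), Fam13a (0.0691), Cox7a1 (0.0621) and Gsta1 (0.142). Leap2 had 0 UMIs against 74.3 CPM. The most abundant transcripts outside the lists were Tpt1 (2025 CPM, ratio 3.69) and the ferritin heavy chain gene Fth1 (923 CPM, 0.346), followed by Fau (854 CPM), Eef1a1 (842 CPM), Actb (619 CPM), Uqcrq (457 CPM), Ftl1 (455 CPM), Nme2 (454 CPM), H3f3b (417 CPM) and Serf2 (398 CPM). Among repeat and debris transcripts Lars2 had a ratio of 10.8 and Gm42418, a ribosomal repeat transcript, 3.62 at 6033 CPM.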
